A study of Mus musculus with 8 samples.

Results

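The genes described here were 37 collagens and other matrix genes that fibroblasts are known to make, chosen by name from the 55801 genes of the expression table. They were 12 collagen chains, 3 small leucine-rich proteoglycans, 7 glycoproteins of fibronectin, fibulin and elastic fibres, 6 matricellular proteins, 3 enzymes or helpers of collagen and elastin processing, 3 secreted binding proteins and 3 surface markers. All 37 symbols occurred once in the table. RNA was measured in thioglycollate-elicited peritoneal macrophages of male C57BL/6 mice aged 6 to 8 weeks, in 4 groups of 2 samples. NC received the DMSO vehicle, LPS received 100 ng/ml lipopolysaccharide (from the outer wall of Gram-negative bacteria) for 4 h, C498 received the compound C498 at 15 µM, and C498+LPS received C498 at that dose for 0.5 h before LPS for 4 h. All 4 groups shared the elicited cells and the male C57BL/6 background, and the cells were a flush of the peritoneal cavity, so that other cells of the cavity and its lining may be present. The labels call every sample peritoneal macrophages. Whether the 2 samples of a group came from separate mice or cultures is not stated, so p-values measured only the spread between these samples. The question here was whether matrix genes moved together or singly across the treatments.

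As background, fibrillar collagens I, III and V form the tensile fibres of connective tissue, collagen IV forms the sheets of basement membranes, and collagen VI forms beaded microfibrils around cells. Proteoglycans such as decorin bind to collagen fibrils, fibronectin and the fibulins link fibres to each other and to cells, and lysyl oxidases cross-link collagen and elastin. In the peritoneum these genes are known as products of fibroblasts and of the mesothelial cells that line the cavity, whereas macrophages are best known for taking up and degrading matrix, although they make some of its components, such as fibronectin.

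Promoter windows in RefSeq (GRCm38.p6, 250 bases before and 50 after an annotated start) were found for 22 of the 37 genes, in 25 windows. The 250 bases before the RefSeq start are shown for 3 genes called higher with C498 both with and without LPS, since they differ in composition and in the motifs they hold. Capitals mark GGGCGG, the core of Sp1 sites, and TATAAA, the TATA box, which were searched on both strands. The Col1a2 stretch lies at chr6:4505368-4505617 on the plus strand, the Col3a1 stretch at chr1:45311288-45311537 on the plus strand and the Sparc stretch at chr11:55420081-55420330 on the minus strand, each printed 5′ to 3′ and ending at the base before the RefSeq start. The GENCODE annotation, from which the gene positions given here are taken, starts Col1a2 and Sparc further upstream, so that their stretches lie inside the annotated genes, and that of Col3a1 lies outside.
Col1a2: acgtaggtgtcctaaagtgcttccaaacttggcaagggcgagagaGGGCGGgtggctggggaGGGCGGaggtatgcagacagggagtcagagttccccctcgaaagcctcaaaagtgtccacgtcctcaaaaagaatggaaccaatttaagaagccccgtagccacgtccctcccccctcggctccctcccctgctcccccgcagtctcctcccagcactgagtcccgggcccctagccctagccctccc
Col3a1: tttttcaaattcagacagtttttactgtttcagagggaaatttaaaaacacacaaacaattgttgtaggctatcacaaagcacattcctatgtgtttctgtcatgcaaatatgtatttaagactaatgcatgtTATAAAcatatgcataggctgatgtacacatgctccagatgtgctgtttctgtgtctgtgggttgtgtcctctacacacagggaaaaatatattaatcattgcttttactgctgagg
Sparc: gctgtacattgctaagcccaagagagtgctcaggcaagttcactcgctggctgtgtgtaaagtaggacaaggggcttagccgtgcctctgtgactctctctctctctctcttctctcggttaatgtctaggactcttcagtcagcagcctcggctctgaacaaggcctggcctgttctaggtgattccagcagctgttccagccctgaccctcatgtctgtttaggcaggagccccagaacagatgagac
GGGCGG began 205 and 188 bases before the Col1a2 start, and TATAAA began 117 bases before the Col3a1 start. The Sparc stretch held neither.

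Over all windows of these genes, GGGCGG was found in 13 of 25 (52%) and in 35.7% of all 32851 windows of the same length. TATAAA was found in 5 of 25 (20%, against 13.6%), a loose NF-kappaB form in 17 (68%, against 50.8%), a loose CArG box in 20 (80%, against 73.3%) and TGANTCA (an AP-1 form) in 1, that of Col6a1 (4%, against 7.81%). TGACGTCA (the CRE) was found in 0 of 25 (against 1.79%). Matches of the loose forms can overlap GGGCGG and each other. The genes lie on 14 chromosomes and include 3 pairs of neighbours. Col4a1 (chr8:11198423-11312826, minus strand) and Col4a2 (chr8:11312805-11449287, plus strand) start head to head, and in GRCm38 their annotated ends overlap by 22 bases, shown here because both genes share them:
Col4a1/Col4a2 overlap: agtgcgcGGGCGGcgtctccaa
The stretch is chr8:11312805-11312826, printed on the plus strand. Col3a1 and Col5a2 on chromosome 1 lie 24614 bases apart, and Col6a1 and Col6a2 on chromosome 10 lie 85161 bases apart. Whether reads were counted by strand is not given in the sources used here, which bears on reads in that overlap. Overlaps of the matrix genes with other annotated genes were not examined.

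Levels are TPM, which are scaled to gene length and to the same total in every sample, so levels can be set side by side between genes but the depth behind them is unknown. Between 17528 and 18975 genes were above 0 in a sample, and across the 12189 tested genes the replicates correlated with a Pearson's r of 0.962 in NC to 0.981 in LPS. Tested genes had a mean TPM of at least 1. Of the 37 matrix genes 32 were tested, and 3 of these reached that mean only through samples with C498, Fbln1 and Postn through both C498 groups and Mfap5 through C498+LPS alone. The tests used limma on log2(TPM + 1), and a gene is described as called where its fold change was at least 2 and its adjusted p at most 0.05. All changes below are log2 differences of log2(TPM + 1), which understate the change of genes at low levels.

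C498 went with higher levels of most matrix genes, with and without LPS. In C498 vs NC, 25 of the 32 tested matrix genes were called higher and 0 lower, where 5.64% of all 12189 tested genes were called higher and 1.36% lower. In C498+LPS vs LPS, 24 were called higher and 1, Pdgfrb, was called lower, where the shares of all genes were 5.39% and 2.18%. The median change was 1.58 in C498 vs NC and 1.52 in C498+LPS vs LPS, and over all tested genes it was 0.01 in both. These comparisons share no samples but share 1 estimate of the spread from all 8 samples, so their calls are not independent. In both, 21 genes were called higher, 84% of the 25 and 87.5% of the 24. Fbln1 and Postn, which entered the tests only through their levels with C498, were among the 21. Over all tested genes 427 were called higher in both, 62.2% and 65.0% of the calls of each. For the 21 genes the ratio of mean TPM ranged from 2.48 (Pcolce) to 4.81 (Col6a2) in C498 vs NC, with a median of 4.01, and from 2.50 (Fbn1) to 5.13 (Col6a2) in C498+LPS vs LPS, with a median of 4.42. In these bulk samples a larger share of cells of one type and more RNA per cell cannot be told apart.

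The counts rested in part on single samples. C498 vs NC gave 14 genes called higher without C498 replicate 1 and 13 without C498 replicate 2. C498+LPS vs LPS gave 14 without LPS replicate 2 and 14 without C498+LPS replicate 2, and the number called in both fell to 13 without C498 replicate 2. A fit of NC and C498 alone called 15. The median change stayed between 1.45 and 1.79 in C498 vs NC and between 1.31 and 1.87 in C498+LPS vs LPS when each sample was left out in turn. The calls of Loxl1, Fbln1, Pcolce and Lox in C498 vs NC and of Mgp, Col12a1, Fbn1 and Igfbp4 in C498+LPS vs LPS were each lost on leaving out any one of 4 or more of the 8 samples.

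**Figure D1:**
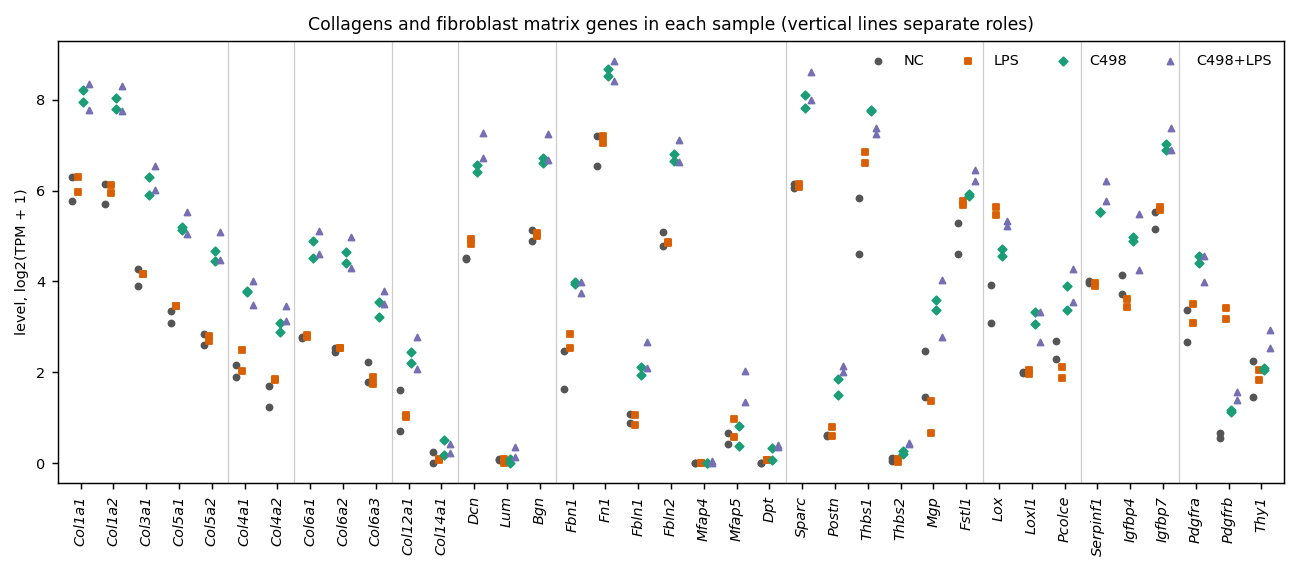
Level of each of the 37 matrix genes as log2(TPM + 1), with 1 point per sample, 2 samples per group and genes in order of role. For Col1a1 the 4 samples with C498 lie between 219.5 and 326 TPM, above the 4 without it at 53.9 to 77.5 TPM, whereas Pdgfrb and Lox are highest in the LPS samples.

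Among the fibrillar collagens all 5 were called higher in both comparisons. Col1a1 (chr11:94936224-94953042, plus strand in GRCm38), the alpha1 chain of collagen I, was at 77.5 and 53.9 TPM in NC, 77.5 and 61.4 in LPS, 247 and 294 in C498, and 219.5 and 326 in C498+LPS. Col1a2, which encodes the other chain of collagen I, was at 69.8 and 51.2 TPM in NC, 68.4 and 60.4 in LPS, 223 and 262 in C498, and 215 and 315 in C498+LPS. Col3a1, the chain of collagen III, was at 13.9 and 18.3 TPM in NC, 17.0 and 17.04 in LPS, 58.9 and 77.8 in C498, and 63.97 and 92.8 in C498+LPS. In all 3 the samples with C498 lay above all samples without it, and the NC and LPS samples overlapped. The change of Col1a1 was 2.04 (SE 0.242, adjusted p = 0.0027) in C498 vs NC and 1.94 (SE 0.242, adjusted p = 0.0028) in C498+LPS vs LPS by limma. That of Col1a2 was 2.00 and 2.00, and that of Col3a1 was 2.02 and 2.11. Collagen V nucleates and limits the width of collagen I fibrils. Its chain Col5a1 was at 9.16 and 7.44 TPM in NC, 10.1 and 9.95 in LPS, 35.8 and 34.2 in C498, and 31.97 and 44.96 in C498+LPS, and Col5a2 at 6.12 and 5.10 TPM in NC, 5.93 and 5.41 in LPS, 20.9 and 24.5 in C498, and 21.1 and 33.2 in C498+LPS. Both were highest in C498+LPS replicate 2 and had changes of 1.96 and 1.84 in C498 vs NC.

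Of the basement membrane collagens, Col4a1 was at 3.49 and 2.70 TPM in NC, 4.61 and 3.08 in LPS, 12.6 and 12.8 in C498, and 10.2 and 15.1 in C498+LPS. Its partner chain Col4a2 was at 2.25 and 1.37 TPM in NC, 2.58 and 2.53 in LPS, 6.41 and 7.43 in C498, and 7.81 and 10.1 in C498+LPS. Both chains were higher in each sample with C498 than in any without it. The changes were 1.75 (SE 0.246, adjusted p = 0.0055) for Col4a1 and 1.51 (SE 0.227, adjusted p = 0.0068) for Col4a2 in C498 vs NC by limma, and 1.49 and 1.47 in C498+LPS vs LPS.

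The 3 chains of collagen VI were called higher in both comparisons. Col6a1 was at 5.74 and 5.84 TPM in NC, 6.10 and 5.81 in LPS, 21.8 and 28.8 in C498, and 23.5 and 33.7 in C498+LPS. Col6a2 was at 4.42 and 4.79 TPM in NC, 4.78 and 4.81 in LPS, 20.2 and 24.03 in C498, and 18.7 and 30.6 in C498+LPS. Col6a3, the longest of the chains, was at 3.67 and 2.47 TPM in NC, 2.72 and 2.35 in LPS, 8.36 and 10.7 in C498, and 10.3 and 12.8 in C498+LPS. For each chain the ranges with and without C498 were separate. Their changes lay between 1.38 (Col6a3) and 2.04 (Col6a2) in C498 vs NC and between 1.82 and 2.10 for the same genes in C498+LPS vs LPS.

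The fibril-associated collagens, which coat fibrils without forming them, were low. Col12a1 was at 2.03 and 0.63 TPM in NC, 1.03 and 1.07 in LPS, 4.45 and 3.59 in C498, and 3.21 and 5.90 in C498+LPS. Its samples with C498 were all higher than those without, but NC replicate 1 stood apart from NC replicate 2. The change was 1.17 (SE 0.363, adjusted p = 0.0715) in C498 vs NC, which was not called, and 1.39 (SE 0.363, adjusted p = 0.0398) in C498+LPS vs LPS, which was called by limma. Col14a1 was at or below 0.42 TPM in every sample and was not tested.

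Of the small leucine-rich proteoglycans, decorin and biglycan were called higher in both comparisons. Dcn was at 21.7 and 21.6 TPM in NC, 27.2 and 29.4 in LPS, 84.3 and 93.3 in C498, and 104 and 154 in C498+LPS. Bgn was at 34.1 and 28.8 TPM in NC, 32.3 and 31.2 in LPS, 96.5 and 105 in C498, and 101 and 151 in C498+LPS. The lowest C498 sample lay well above the highest sample without C498 for each. Dcn changed by 1.99 (SE 0.177, adjusted p = 0.00082) in C498 vs NC and 2.13 (SE 0.177, adjusted p = 0.0008) in C498+LPS vs LPS, and Bgn by 1.65 and 1.93. Lum, which encodes lumican, a protein typical of fibroblasts of many tissues, was at or below 0.28 TPM throughout and was not tested.

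Of the matrix glycoproteins, Fn1, which encodes fibronectin, had the highest mean level of all 37 genes and was at 147 and 92.3 TPM in NC, 146 and 132 in LPS, 368 and 408 in C498, and 343 and 463 in C498+LPS. Fbln2, a fibulin that binds elastic fibres and basement membranes, was at 33.0 and 26.6 TPM in NC, 27.7 and 28.1 in LPS, 98.95 and 111 in C498, and 98.2 and 138 in C498+LPS. Fbn1, the main protein of microfibrils, was at 4.56 and 2.10 TPM in NC, 6.18 and 4.78 in LPS, 14.4 and 14.95 in C498, and 12.5 and 14.95 in C498+LPS. All 3 were higher in every sample with C498 than in any without. The changes in C498 vs NC were 1.73, 1.79 and 1.92, and in C498+LPS vs LPS 1.51, 2.02 and 1.19. Fbln1, a fibulin of lower level, was at 1.11 and 0.83 TPM in NC, 0.79 and 1.07 in LPS, 2.85 and 3.35 in C498, and 3.27 and 5.39 in C498+LPS. It too was separate between samples with and without C498, with changes of 1.06 and 1.44. Mfap5, a microfibril protein, ranged from 0.29 to 0.95 TPM outside C498+LPS and was at 1.55 and 3.08 there. It was not called in any comparison, with changes of 0.05 (SE 0.337, adjusted p = 0.935) in C498 vs NC and 0.92 (SE 0.337, adjusted p = 0.112) in C498+LPS vs LPS. Mfap4 and Dpt, markers of tissue fibroblasts, stayed at or below 0.03 and 0.31 TPM and were not tested.

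Matricellular proteins, which sit in the matrix and act on cells rather than build fibres, divided. Sparc, a collagen-binding protein, was at 66.1 and 69.8 TPM in NC, 66.3 and 69.9 in LPS, 225 and 275 in C498, and 254 and 391 in C498+LPS. Postn, periostin, was at 0.54 and 0.51 TPM in NC, 0.73 and 0.52 in LPS, 1.82 and 2.58 in C498, and 3.0 and 3.40 in C498+LPS. Mgp, an inhibitor of calcification, was at 4.55 and 1.74 TPM in NC, 0.58 and 1.57 in LPS, 11.03 and 9.32 in C498, and 5.80 and 15.5 in C498+LPS. Sparc and Postn were called higher in both comparisons, with changes in C498 vs NC of 1.86 and 1.06 and in C498+LPS vs LPS of 2.20 and 1.37. The Mgp levels were uneven within NC, LPS and C498+LPS, and its change was 1.51 (SE 0.498, adjusted p = 0.0834) in C498 vs NC, not called, and 2.39 (SE 0.498, adjusted p = 0.0186) in C498+LPS vs LPS, called by limma. With samples left out in turn the latter ranged from 1.75 without C498+LPS replicate 2 to 3.03 without C498+LPS replicate 1, and its adjusted p by limma reached 0.130 over the alternatives. The call was lost without C498+LPS replicate 2 or any one LPS or C498 sample. Thbs2 was at or below 0.36 TPM and was not tested. Thbs1 and Fstl1, the other 2 of these 6, followed another pattern and are described with LPS below.

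Among the processing genes, Pcolce, which enhances the trimming of procollagen, was at 5.42 and 3.92 TPM in NC, 3.36 and 2.67 in LPS, 9.32 and 13.8 in C498, and 10.7 and 18.4 in C498+LPS. Loxl1, a lysyl oxidase family enzyme of elastic fibres, was at 2.99 and 2.97 TPM in NC, 3.13 and 2.92 in LPS, 7.33 and 9.06 in C498, and 5.34 and 8.97 in C498+LPS. Pcolce was separate between samples with and without C498, and so was Loxl1. Pcolce changed by 1.14 in C498 vs NC and 1.91 in C498+LPS vs LPS and was called in both. Loxl1 changed by 1.20 (SE 0.246, adjusted p = 0.0205) and 0.98 (SE 0.246, adjusted p = 0.0351), of which the latter fell just short of a 2-fold change. Of the 25 calls in C498 vs NC, those of Pcolce and Fbln1 were closest to the threshold of 0.05, with adjusted p of 0.0457 and 0.0388 by limma.

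Of the secreted binding proteins, Serpinf1, which encodes PEDF, was at 14.7 and 15.02 TPM in NC, 14.6 and 14.01 in LPS, 45.3 and 45.5 in C498, and 53.5 and 72.95 in C498+LPS. Igfbp7 was at 34.9 and 45.01 TPM in NC, 49.1 and 46.7 in LPS, 118 and 128 in C498, and 118 and 167 in C498+LPS. Igfbp4, like Igfbp7 a binder of insulin-like growth factors, was at 12.3 and 16.7 TPM in NC, 11.3 and 9.76 in LPS, 30.7 and 28.6 in C498, and 17.98 and 44.1 in C498+LPS. All 3 were separate between samples with and without C498, Igfbp4 narrowly, and the Igfbp4 samples of C498+LPS differed widely from each other. Serpinf1 changed by 1.55 (SE 0.154, adjusted p = 0.0013) in C498 vs NC and 2.05 (SE 0.154, adjusted p = 0.00062) in C498+LPS vs LPS, and Igfbp7 by 1.61 and 1.53. Igfbp4 changed by 1.00 (SE 0.368, adjusted p = 0.112), which was not called, and by 1.35 (SE 0.368, adjusted p = 0.0466), which was called by limma. The latter ranged from 0.72 without C498+LPS replicate 2 to 1.97 without C498+LPS replicate 1, the one sample without which it was still called, and its adjusted p by limma reached 0.218 over the alternatives.

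Of the surface markers, Pdgfra, the PDGF receptor typical of fibroblasts, was at 9.34 and 5.31 TPM in NC, 10.4 and 7.49 in LPS, 20.3 and 22.7 in C498, and 14.8 and 22.7 in C498+LPS. It was higher in each sample with C498 than in any without, with changes of 1.48 (SE 0.297, adjusted p = 0.0196) in C498 vs NC, called, and 0.98 (SE 0.297, adjusted p = 0.065) in C498+LPS vs LPS, not called by limma. Thy1, which marks fibroblasts and T cells, ranged from 1.73 to 6.59 TPM, and its NC and C498 samples overlapped. Its changes of 0.22 and 0.79 were not called.

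Counting all 37 genes, tested or not, both C498 samples were higher than both NC samples for 32, and both C498+LPS samples were higher than both LPS samples for 34. Over all tested genes these shares were 29.3% and 31.9%. Both treated samples were lower for 0 genes in C498 vs NC, against 28.4% of all tested genes, and for 2 in C498+LPS vs LPS, against 30.9%. The exceptions in C498 vs NC were Col14a1, Lum, Mfap4, Mfap5 and Thy1, and in C498+LPS vs LPS they were Mfap4, whose samples were at 0 to 0.03 TPM, and Lox and Pdgfrb, which were lower.

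**Figure D2:**
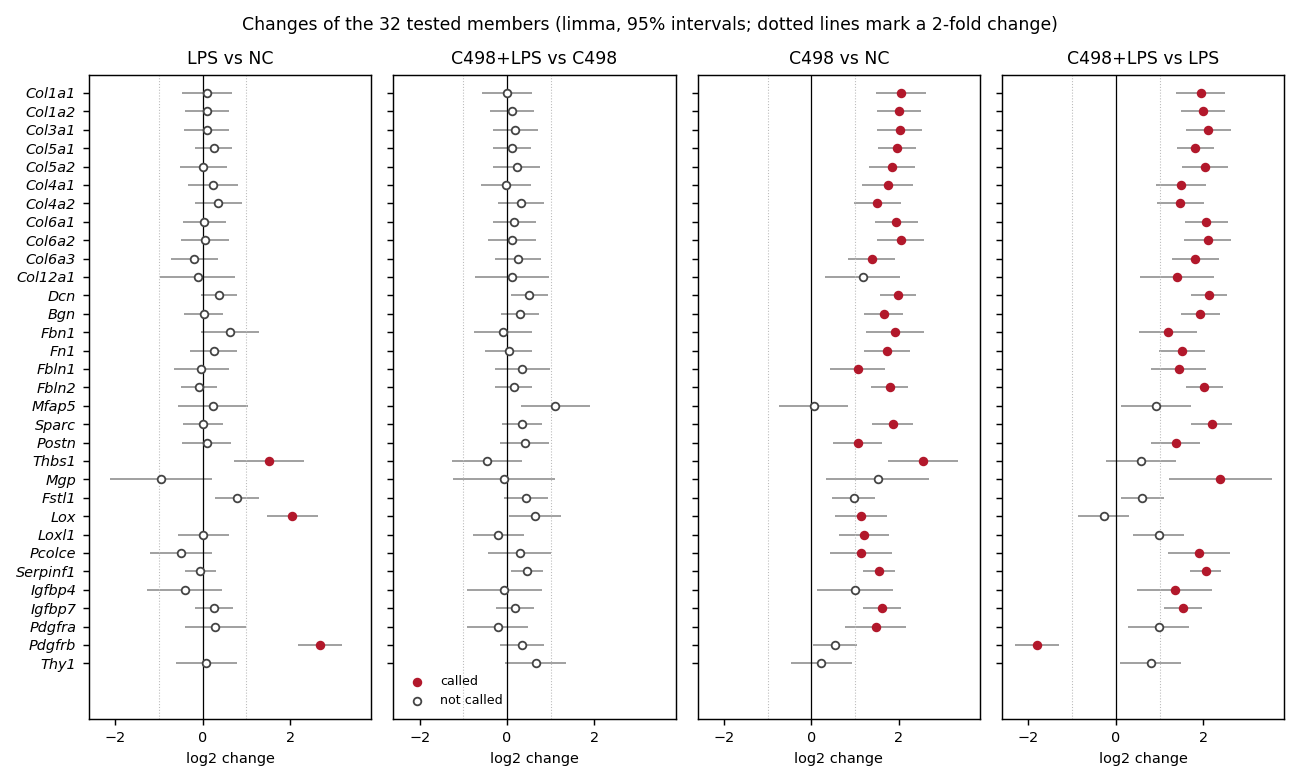
Change of each of the 32 tested matrix genes in 4 comparisons, as log2 differences of log2(TPM + 1) with 95% intervals from limma, filled where called. All 32 points of C498 vs NC and 30 of C498+LPS vs LPS lie to the right of 0, with medians of 1.58 and 1.52, whereas in LPS vs NC only Pdgfrb, Lox and Thbs1 are called and in C498+LPS vs C498 none is.

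LPS alone left the collagens near their NC levels. In LPS vs NC, 3 of the 32 tested genes were called higher and 0 lower, where 5.55% of all tested genes were called higher and 6.68% lower. By limma 4 genes, the called 3 and Fstl1, had an unadjusted p under 0.05, 12.5% of the 32 against 41.2% of all tested genes. The 11 tested collagens changed by -0.19 to 0.36, none was called, and each 95% interval included 0 and lay within 1 of it. For the 21 genes called higher with C498 in both comparisons the median change by LPS was 0.09, the range was -0.49 (Pcolce) to 0.63 (Fbn1), and 19 of the 21 intervals lay within 1 of 0. Over all 37 genes, both samples were higher than both of NC for 10 and lower for 4, where 19.3% and 42.2% of all tested genes were. The median of all tested genes was -0.17, and with each sample centred on its median gene the median of the 32 matrix genes rose from 0.09 to 0.26, while 3 were still called higher.

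The 3 genes called higher with LPS were Pdgfrb, Lox and Thbs1. Pdgfrb (chr18:61045150-61085061, plus strand), the receptor for PDGF-B that marks pericytes and activated fibroblasts, was at 0.58 and 0.47 TPM in NC, 9.63 and 8.03 in LPS, 1.18 and 1.24 in C498, and 1.97 and 1.62 in C498+LPS. Lox, the enzyme that cross-links collagen and elastin, was at 14.1 and 7.52 TPM in NC, 48.8 and 43.2 in LPS, 22.8 and 25.2 in C498, and 36.2 and 39.4 in C498+LPS. Thbs1 (chr2:118111876-118127133, plus strand), which encodes thrombospondin 1, an activator of latent TGF-beta, was at 55.9 and 23.3 TPM in NC, 114 and 96.2 in LPS, 219 and 215 in C498, and 150.1 and 164 in C498+LPS. For each gene the LPS pair lay above the NC pair. Pdgfrb was low in the other 3 groups, Lox was intermediate in both C498 groups, and Thbs1 was highest with C498 alone. The changes by LPS were 2.68 (SE 0.213, adjusted p = 0.00018) for Pdgfrb, 2.05 (SE 0.25, adjusted p = 0.0014) for Lox and 1.51 (SE 0.34, adjusted p = 0.0155) for Thbs1 by limma. The Pdgfrb and Lox calls held without any one sample. The Thbs1 samples of NC differed more than 2-fold, its change ranged from 0.89 to 2.12 when single samples were left out, the call was lost without NC replicate 2 or either LPS sample, and its adjusted p ranged from 0.000519 to 0.102 over all alternatives.

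Fstl1, follistatin-like 1, a secreted glycoprotein of mesenchymal cells, was at 37.9 and 23.2 TPM in NC, 53.5 and 50.6 in LPS, 59.5 and 58.2 in C498, and 73.1 and 87.1 in C498+LPS. NC was lowest, C498+LPS was highest, and LPS and C498 lay close together. Its changes of 0.79 (SE 0.212, adjusted p = 0.0295) in LPS vs NC and 0.96 (SE 0.212, adjusted p = 0.0258) in C498 vs NC were short of a 2-fold change. With each sample left out in turn they ranged from 0.45 to 1.13 and from 0.62 to 1.31, and without NC replicate 1 both were called.

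In the presence of LPS these genes were not called higher with C498. Pdgfrb was called lower in C498+LPS vs LPS, with a change of -1.81 (SE 0.213, adjusted p = 0.0023) by limma, the only matrix gene called lower in any of the 4 pairwise comparisons. This call held without any one sample, with an adjusted p of 0.0012 to 0.0274 over the alternatives that tested it. Lox changed by -0.28 (95% interval -0.86 to 0.31) and Thbs1 by 0.58 (95% interval -0.22 to 1.38), neither called. Without LPS, Lox and Thbs1 were called higher with C498, with changes of 1.13 (SE 0.25, adjusted p = 0.0258) and 2.55 (SE 0.34, adjusted p = 0.0045), and Pdgfrb changed by 0.54 (SE 0.213, adjusted p = 0.134), which was not called by limma. The Lox call in C498 vs NC was lost without either C498 sample, either LPS sample, either C498+LPS sample or NC replicate 2, with an adjusted p of 0.0031 to 0.147 over all alternatives, and its value ranged from 0.72 to 1.55 without NC replicate 2 and NC replicate 1. That of Thbs1 ranged from 1.94 to 3.17 without the same samples, and its call was lost without either C498 sample and in a fit of NC and C498 alone, with an adjusted p of up to 0.0597.

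The interaction, the LPS effect with C498 minus that without, was called lower for 1 of the 32 genes, Pdgfrb, and higher for 0, where 0.394% and 0.0738% of all tested genes were called. For Pdgfrb it was -2.35 (SE 0.301, adjusted p = 0.031) by limma. The call was lost without any one of 7 of the 8 samples, all but NC replicate 1, with an adjusted p of 0.0288 to 0.166 over the alternatives and a value of -2.47 to -2.23 with each sample left out in turn, and with a pseudocount of 0.1 TPM the value was -3.31. The interaction was -1.97 (SE 0.481, adjusted p = 0.188) for Thbs1 and -1.41 (SE 0.353, adjusted p = 0.197) for Lox, neither called by limma, and without NC replicate 1 all 3 genes were called. For the 21 genes called higher with C498 in both comparisons, the interaction ranged from -0.73 to 0.77, each 95% interval included 0, 14 of 21 lay within 1 of it, and the other 7 reached past a 2-fold difference in the C498 effect.

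In C498+LPS vs C498, 0 of the 32 genes were called higher and 0 lower by limma, where 2.52% and 3.13% of all tested genes were called, and 4 (Dcn, Serpinf1, Lox and Mfap5) had an unadjusted p under 0.05 with changes above 0, 12.5% against 31.9% of all tested genes in either direction. The median change was 0.19, and that of all tested genes was -0.18. With each sample left out in turn, the median of the matrix genes ranged from -0.09 to 0.46, so that its direction rested on single samples. Of the 11 tested collagens each changed by between -0.03 and 0.32 with intervals within 1 of 0. Over all 37 genes both C498+LPS samples were above both C498 samples for 12, against 17.4% of all tested genes, and below them for 1, Thbs1, against 48.8%.

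Most of the matrix genes had like profiles over the samples, being higher in those with C498. Over the 8 samples the median Pearson's r between pairs of the 32 tested genes was 0.922, and 272 of 496 pairs (54.8%) had an r above 0.9. These values describe 8 libraries in 4 groups, and r within groups was not computed. Genes that are higher with C498 correlate over these samples for that reason, so the r values restate that result. The same values for pairs of all tested genes are not given here. The median r with the other genes was above 0.9 for 24 genes and below 0.8 for 6, namely Pdgfrb (-0.28), Lox (0.32), Mfap5 (0.56), Thy1 (0.63), Thbs1 (0.77) and Fstl1 (0.78). The tested genes outside the 37 most like the sum of Col1a1, Col1a2 and Col3a1 were Flnc, with an r of 0.998 on log2(TPM + 1) over the 8 samples, and Pxdn, Lamb1, Slit3 and Cdh2, with r of 0.997.

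A finer view divides each gene by the sum of Col1a1, Col1a2 and Col3a1 in the same sample. Leaving out these 3 genes, of the 23 whose TPM averaged at least 5, 15 kept this share within 2-fold over all 8 samples. The ratio of the highest to the lowest share had a median of 1.64 over the 23 genes. Among the 15 it was 1.24 for Col5a2, 1.27 for Fbln2, 1.33 for Col5a1, 1.39 for Sparc and, at the widest, 1.91 for Pcolce. Fbln2 was at 21.02% of the collagen I and III sum in NC, 18.6% in LPS, 18.1% in C498 and 19.3% in C498+LPS, as group means. Fn1 was at 82.9% in NC, 92.3% in LPS, 67.0% in C498 and 65.9% in C498+LPS. The other 8 genes were Mgp, Lox, Fstl1, Igfbp4, Thbs1, Loxl1, Fbn1 and Pdgfra. Lox was at 7.43% in NC, 30.5% in LPS, 4.14% in C498 and 6.31% in C498+LPS. Thbs1 was at 26.7%, 69.5%, 37.7% and 26.2%, and Fstl1 at 21.2%, 34.6%, 10.2% and 13.3%, in the same order. Pdgfrb, with a lower mean level, had the widest range of all 32, 30.2-fold, with 0.370% in NC, 5.85% in LPS, 0.209% in C498 and 0.308% in C498+LPS. Both C498 groups had shares of Lox and Fstl1 below those of both LPS samples.

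**Figure D3:**
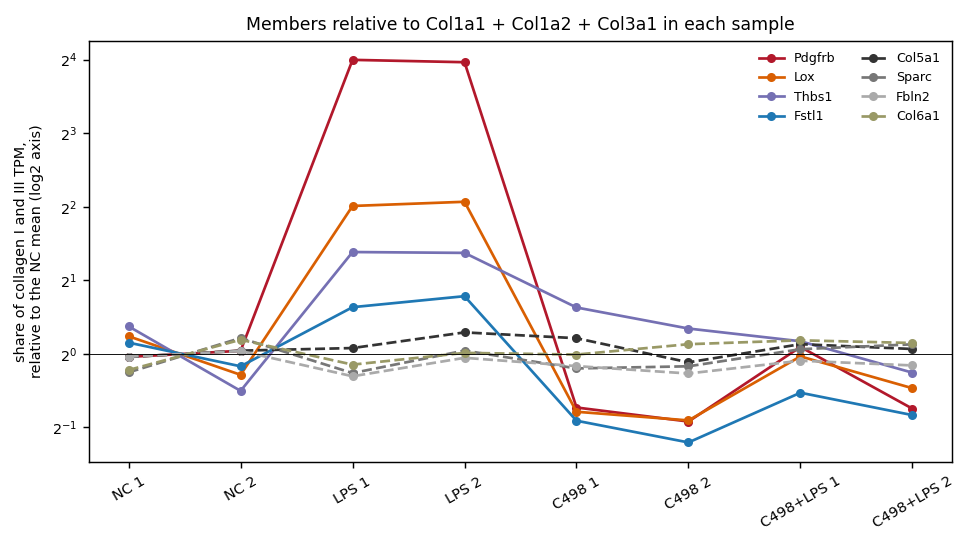
Level of 8 matrix genes divided by the sum of Col1a1, Col1a2 and Col3a1 in the same sample, relative to the NC mean on a log2 axis, with 1 point per sample. Col5a1, Sparc, Fbln2 and Col6a1 (dashed) stay near 1 in all 8 samples, whereas Pdgfrb, Lox, Thbs1 and Fstl1 (solid) rise in both LPS samples.

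The replicates of a group also differed along this set. In C498+LPS, replicate 2 was higher than replicate 1 for 31 of the 32 tested genes, with a median difference of 0.53, whereas 41.2% of all tested genes were higher in it, with a median of -0.05. In C498, replicate 2 was higher for 25 of 32, with a median of 0.15, against 47.4% of all tested genes. In NC and in LPS, replicate 1 was the higher sample for 23 of 32 genes, with medians of -0.25 and -0.08 for replicate 2 minus replicate 1, against 70.2% and 64.2% of all tested genes, whose medians were -0.20 and -0.08. Within C498+LPS the difference thus ran through the collagens, proteoglycans and fibulins alike, for instance from 219.5 to 326 TPM for Col1a1.

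**Figure D4:**
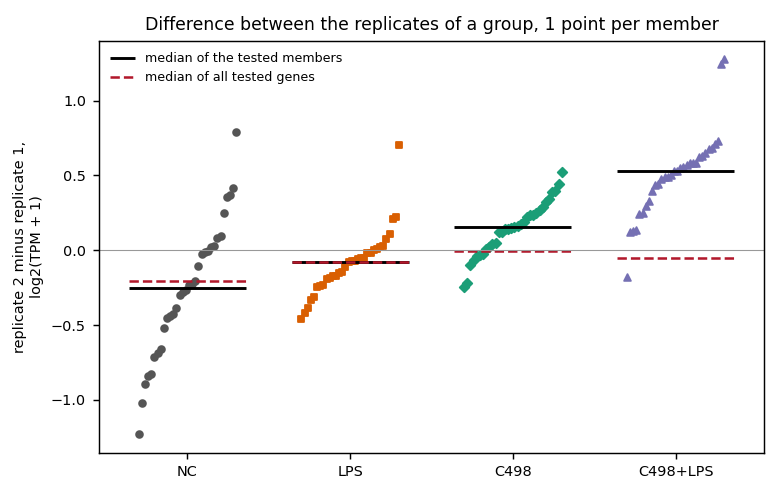
Difference between replicate 2 and replicate 1 of each group in log2(TPM + 1), with 1 point per tested matrix gene, the median of these 32 genes as a solid line and that of all 12189 tested genes as a dashed line. In C498+LPS 31 of 32 points lie above 0 with a median of 0.53, whereas the dashed line lies at -0.05.

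Some marker lists of other cells, above all the mesothelial list, were higher with C498 as the matrix genes were, and others were not. The summed level of 12 mesothelial markers was 6.34 to 7.71 TPM in NC, 6.92 to 7.25 in LPS, 22.0 to 28.8 in C498 and 22.2 to 37.7 in C498+LPS, that is 3.61 times as high in C498 as in NC and 4.22 times as high in C498+LPS as in LPS. The 12 matrix collagens were 4.09 and 4.13 times as high in the same comparisons. Of the 12 mesothelial markers 10 were higher in both C498 samples than in both NC samples, and 10 likewise in C498+LPS vs LPS. The shares of all tested genes were 29.3% and 31.9%. Only 5 of these markers were tested, of which 2 were called higher in C498 vs NC and 3 in C498+LPS vs LPS. Of all tested genes 5.64% and 5.39% were called higher. Wt1, a transcription factor of mesothelium, changed by 1.49 (SE 0.244, adjusted p = 0.0094) in C498 vs NC by limma. Krt19, a keratin, was at 0.11 to 0.28 TPM without C498 and at 1.65 to 3.87 TPM with it, so that it entered the tests only through the C498 groups. Upk1b, called in C498+LPS vs LPS only, and Upk3b, not called, likewise entered only through them. Muc16 was at or below 0.01 TPM and Msln, the defining marker of mesothelium, at 0.04 to 1.52 TPM. The summed level was higher in replicate 2 than in replicate 1 of C498+LPS, as that of the collagens was. The part of mesothelial cells in the matrix result was not tested.

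The 8 markers of smooth muscle and pericytes summed to 30.3 to 35.6 TPM without C498 and to 76.1 to 124 TPM with it. Most of that sum came from Acta2, Tagln and Des. Myh11 and Cspg4 did not exceed 0.16 and 0.36 TPM, and Rgs5 was at 0 in every sample. Both samples with C498 were above both without it for 5 of 8 markers in C498 vs NC and in C498+LPS vs LPS. The shares of all tested genes were 29.3% and 31.9%. Des changed by 1.20 (SE 0.191, adjusted p = 0.0085) and Tagln by 1.45 (SE 0.267, adjusted p = 0.0142) in C498 vs NC by limma. Of 19 further fibroblast markers, 9 were higher and 2 lower in both C498 samples than in both NC samples. The shares of all tested genes were 29.3% and 28.4%. In C498+LPS vs LPS 11 were higher and 1 lower, against 31.9% and 30.9%. Of the 5 tested, Prrx1, Cd34 and Tnfaip6 were called higher in C498 vs NC, against 5.64% of all tested genes. Cd34 entered the tests only through the C498 groups. Tcf21 was at 0 in every sample, Clec3b and Scara5 did not exceed 0.14 TPM, and the sum of 58.8 to 94.2 TPM came mostly from Gsn, which was lower with C498. The 10 endothelial markers summed to 26.6 to 31.0 TPM in NC, 21.8 to 24.8 in LPS, 27.6 to 36.2 in C498 and 23.7 to 24.0 in C498+LPS, and 0 of their 3 tested genes were called by limma in any of the 5 tests. Most of that sum was Vwf, at 12.5 to 29.1 TPM. Pecam1, at 0.20 to 0.54 TPM without C498 and 0.63 to 1.25 with it, and Esam, at 0 to 0.28 and 0.54 to 1.33, were too low to test and were higher in every sample with C498. Of the tested markers, Kdr went the other way with LPS, at 3.71 and 2.57 TPM in LPS and 1.82 and 1.54 in C498+LPS, and all 3 had changes below 0 in C498+LPS vs LPS, none called. The part of these cell types in the matrix result was not tested either.

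The macrophage list had the highest summed level, most of it from Lyz2 and Cd68, while Mertk and Mrc1 did not exceed 29.3 TPM. The sum over 10 markers was 20179 to 20700.5 TPM in NC, 17958 to 18492 in LPS, 16017 to 16157 in C498 and 12448 to 14244 in C498+LPS, 0.787 times as high in C498 as in NC and 0.732 times as high in C498+LPS as in LPS. The 8 neutrophil markers summed to 187 to 228 TPM without C498 and to 115 to 140.3 TPM with it. The summed level of all 37 matrix genes was 546 to 701 TPM in NC, 758 to 829.7 in LPS, 2099 to 2355 in C498 and 2039 to 2895 in C498+LPS. The mast cell markers summed to 9.40 to 11.4 TPM without C498, 13.9 and 18.2 in C498 and 10.03 and 26.4 in C498+LPS, and the B cell markers to 3.65 to 4.66 without C498, 7.52 and 6.02 in C498 and 4.46 and 13.8 in C498+LPS. Their part in the matrix result was not tested. Sums of T cell and eosinophil markers did not exceed 5.36 TPM.

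**Figure D5:**
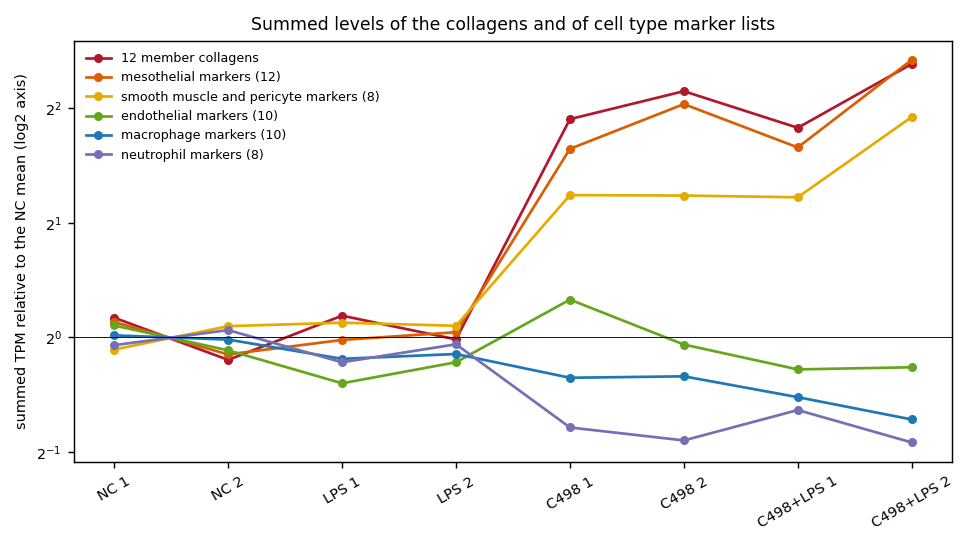
Summed TPM of the 12 matrix collagens and of 5 lists of cell type markers, relative to the mean of the NC samples on a log2 axis, with 1 point per sample. The collagens and the mesothelial markers are 4.09 and 3.61 times as high in C498 as in NC, whereas the macrophage markers are 0.787 times as high and the endothelial markers, mostly Vwf, are 1.11 times as high.

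The rest of the matrix pathway was measured with 4 further lists, whose counts stand against 5.64% of all tested genes called higher and 1.36% lower in C498 vs NC, 5.39% and 2.18% in C498+LPS vs LPS, and 5.55% and 6.68% in LPS vs NC. Of 32 other collagen genes 7 were tested, and 3 (Col24a1, Col5a3 and Col4a5) were called higher and 0 lower both in C498 vs NC and in C498+LPS vs LPS. Of these, Col24a1 entered the tests only through the C498 groups, and the counts of calls that follow likewise include Adamts2 among the enzymes, Eln, Lama5 and Efemp1 among the glycoproteins and Mrc2 among the receptors. Of 20 tested enzymes and chaperones of collagen synthesis, 7 were called higher in C498 vs NC and 8 in C498+LPS vs LPS, and 0 were lower. They included Bmp1, which trims procollagen, with 1.72 and 1.70, Plod2, a lysyl hydroxylase, with 1.85 and 1.95, and Serpinh1, the collagen chaperone HSP47, with 1.63 and 1.85. Of 26 other tested glycoproteins and proteoglycans, 11 were called higher in C498 vs NC, among them Ccn2, Hspg2 (perlecan), Ccn1 and Nid1, and 1 lower, Tgfbi, and 13 were called higher in C498+LPS vs LPS. Of 20 tested matrix receptors, 2 (10%) were called higher in C498 vs NC and 3 (15%) in C498+LPS vs LPS. In LPS vs NC 0 genes of the first 2 lists were called. In the third, Vcan (versican) was called higher and Tgfbi lower, as Tgfbi also was in C498 vs NC. Of the receptors 5 were called higher, among them Sdc4, Itgb8, Itga5 and Cd44, and 1, Itgb5, lower.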

How the data were processed

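RNA of 8 samples of peritoneal macrophages, 2 in each of 4 groups, was sequenced on an Illumina. The authors used fastp to filter reads, HISAT2 to align them, StringTie to assemble transcripts and RSEM to quantify genes. The deposited values used here are TPM per gene and sample. Versions, genome build, annotation and read depth are not given in the sources used here, so the precision of a value is known only from the replicates. All 8 sample columns were mapped by their names.

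Genes whose TPM averaged at least 1 over the samples (12189) entered a fit with limma 3.58.1 (R 4.3.3) on log2(TPM + 1), with 1 mean per group over all 8 samples, a variance trend and Benjamini-Hochberg adjustment over all genes tested within each comparison. Calls used the study's thresholds, namely a 2-fold change or more with an adjusted p no higher than 0.05. The steps were tested on simulated data. The matrix genes, gene lists, motifs and tests were chosen with earlier results of these data known. Values per sample are given for genes called in a comparison and for the 10 with the highest mean TPM, and up to 4 called genes of other lists are named. All 37 identifiers matched GENCODE M21 (GRCm38).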

Additional observations from a re-analysis of the deposited data

Results flagged for a closer look

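Pdgfrb was flagged because the effect of LPS on it differed between samples with and without C498 by a test of the difference itself, the interaction term of limma. The LPS effect with C498 minus that without was -2.35 on the log2 scale (adjusted p = 0.031). Pdgfrb was at 0.58 and 0.47 TPM in NC, 9.63 and 8.03 in LPS, 1.18 and 1.24 in C498, and 1.97 and 1.62 in C498+LPS, so that both LPS samples lay above all 6 others. The call did not hold without any one of 7 samples, all but NC replicate 1. The 8 markers of smooth muscle and pericytes, cells in which Pdgfrb is known to be high, summed to 35.0 to 35.6 TPM in LPS and 30.3 to 34.9 TPM in NC. With C498 they summed to 76.1 to 124 TPM. Most of that sum was Acta2, Tagln and Des. The part of these cells in the result was not tested.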

How the results depend on the processing

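Over 1191 values of single matrix genes under other settings, 1060 kept direction and side of the threshold, 120 fell short of it with the same direction, 11 newly passed it and 0 reversed. With each sample left out in turn, the number called higher ranged from 2 to 5 in LPS vs NC, from 13 to 26 in C498 vs NC and from 14 to 23 in C498+LPS vs LPS, and the number called higher in both C498 comparisons from 13 to 21. The number with a lower interaction ranged from 0 to 3. A fit of only the groups compared called 15 in C498 vs NC. With a mean TPM of at least 5, at which Pdgfrb is not tested, 0 genes were called lower in C498+LPS vs LPS and 0 had a lower interaction, and without a filter the interaction was again called for 0. The median change in C498+LPS vs LPS was 1.95 with a pseudocount of 0.1, 1.87 with a mean TPM of at least 5 and 1.87 without C498+LPS replicate 1. The cause of the changes with the fit of fewer samples and with single samples was not tested. With 1 sample left in a group, that sample was assumed to vary like the other groups.

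The replicate numbers were tried as a block. Deviations of samples with the same number correlated at 0.0397 to 0.168 across genes, and 3 of the 6 pairs of groups were below 0.1, so the numbers were not taken to pair the samples, and whether they do is not stated. With the replicate block the counts called higher were 3 in LPS vs NC, 25 in C498 vs NC, and 24 in C498+LPS vs LPS, with 0 for C498+LPS vs C498. Again 21 were called higher in both C498 comparisons, and 1 gene had a lower interaction, as without it. The TPM values keep no depth, and 5 of the 37 genes were too low to test.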
